A study of Mus musculus with 12 samples.

Results

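Shh, Bmp4, Pdgfa, Fgf9, Id1 and Id3 are 6 mouse genes that stand for the signals that lung epithelium sends to the mesenchyme beneath it and for the response to BMP. They were chosen by name, with earlier results of these data known. Their members are the deposited CUT&RUN peaks over each gene body in RefSeq (GRCm38.p6, the assembly of mm10) and 50 kb on each side. These windows held 493 of the 487064 peaks of 9 lists, and 353 of the 493 lay nearest to an end of the member gene rather than of another protein-coding gene. CUT&RUN uses an antibody to direct a nuclease that cuts and releases the chromatin around a bound protein or a modified histone. The cells were EpCAM-positive epithelial cells taken by magnetic beads from lungs of wild-type C57Bl6 mice at E17.5, late in fetal life, with 100000 cells in each reaction. All groups share this genotype, age and cell selection, and the labels tell them apart by the antibody. It was against NKX2-1 (3 libraries), PRDM16 (2 libraries, replicate 1 with a rabbit and replicate 2 with a sheep antibody), PRDM3 (1 library) or H3K4me3 (3 libraries). The labels do not say whether replicates came from separate litters, so the spread between them may be technical, and the 3 IgG samples were not analysed here.

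SHH, BMP4, PDGFA and FGF9 are secreted proteins. SHH from the lung epithelium binds PTCH1 on mesenchymal cells and turns on the GLI factors there, PDGFA acts on PDGFRA-bearing precursors of alveolar myofibroblasts, FGF9 promotes the growth of the mesenchyme, and BMP4 is made at the tips of the growing airways. Receptors for BMP activate SMAD proteins, which switch on Id1 and Id3, and these encode proteins that hold basic helix-loop-helix factors off DNA. The homeodomain factor NKX2-1 gives lung epithelium its identity. PRDM3 and PRDM16 are zinc-finger proteins of one family, and histone H3 carries the H3K4me3 modification at the starts of active genes.

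The lists differed in strength, and the fold enrichment that the authors' peak caller gave each peak was therefore ranked only within its own list. A q under 0.05 was reached by 76.4% of the peaks of NKX2-1 replicate 1 but by 10.8% and 12.9% of those of replicates 2 and 3, by 42.3% to 45% of the PRDM16 and PRDM3 peaks, and by 100% of the H3K4me3 peaks. The peak names form a pair of letter series, one shared by every PRDM list and by replicate 1 of both NKX2-1 and H3K4me3, and the other, which has no PRDM list, by their replicates 2 and 3. The lists carry no read counts, so the depth behind a peak is unknown. H3K4me3 lay within 1 kb of a gene end at 7 of 8 epithelial marker genes, at 2 of 8 mesenchymal (Col1a1 and Col1a2), 1 of 6 endothelial (Kdr), 1 of 6 immune (Spi1) and 1 of 4 mesothelial marker genes (Msln). The epithelial exception was Cldn18, a claudin of alveolar cells.

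Peaks of all 3 factors and of H3K4me3 were found at each of the 6 genes. Each had a linked peak, one whose nearest protein-coding gene end within 50 kb was its own, in all 9 lists, as did 37.2% of 21883 protein-coding genes. A linked NKX2-1 region, covered in at least 2 of 3 libraries, stood at 6 of 6 genes (50.7% of all genes), a PRDM16 region, covered in both libraries, at 6 of 6 (58.7%), and a PRDM3 peak at 6 of 6 (66.7%). A region where all 3 proteins overlapped stood at 6 of 6 genes, against 34.6% of all genes. This count rests on weak NKX2-1 peaks. Among peaks whose −log10 q was 5 or more, Shh alone kept a linked NKX2-1 region and a region of all 3 proteins (6.02% and 2.61% of all genes).

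The numbers of linked regions of each protein were above the median over all genes at each member. Shh had 6 NKX2-1, 9 PRDM16 and 10 PRDM3 regions and 5 shared by all 3, and 99.6% of all genes had fewer shared regions. Bmp4 had 6, 7 and 12 regions with 3 shared, and Id1 had 6, 6 and 10 with 3 shared. Id3 had 5, 8 and 8 with 4 shared. Pdgfa had 3, 10 and 11 with 1 shared, and Fgf9 had 4, 4 and 8 with 1 shared. The medians over all genes were 1 NKX2-1, 1 PRDM16 and 1 PRDM3 region and 0 shared regions. Since a region is linked to the nearest gene end, a gene far from others can be linked to more of them. The gap to the nearest other protein-coding gene ran from 16506 bases at Id1 to 369792 at Bmp4. Its effect on these numbers was not tested. Several regions can be parts of a single stretch. When overlapping factor peaks were joined into sites, the shared regions lay in 2 sites at Shh and 2 at Bmp4. They lay in 3 sites at Id3 and in 1 each at Pdgfa, Fgf9 and Id1. With an NKX2-1 library left out, a region had to be covered in both of the others, a stricter rule for every gene. The share of all genes with a linked NKX2-1 region was then 30.7%, 43.7% and 38.4% without replicates 1, 2 and 3, against 50.7% with all of them. The NKX2-1 and shared numbers of Shh were lower too. Without NKX2-1 replicate 1, Shh had 2 NKX2-1 regions and 1 shared region, and the other members had 1 to 3 NKX2-1 and 1 or 2 shared regions. Without NKX2-1 replicate 2 or 3, Shh had 3 of each. With the 20000 strongest peaks of each list, Shh had 1 of each.

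The windows differed in how much of their binding could be assigned to the member. All 68 peaks in the Bmp4 window and 53 of 54 in the Fgf9 window were nearest to that gene. Of 119 peaks around Id1 only 46 were, since 38 lay nearer to Cox4i2, 16 to Mcts2, 15 to H13 and 4 to Bcl2l1. Of 112 peaks around Id3, 61 were nearest to it, 50 to E2f2 and 1 to Rpl11. Around Shh 58 of 64 peaks were its own and 6 lay nearer to Rbm33, and around Pdgfa 67 of 76 were its own and 9 lay nearer to Prkar1b.

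**Figure D1:**
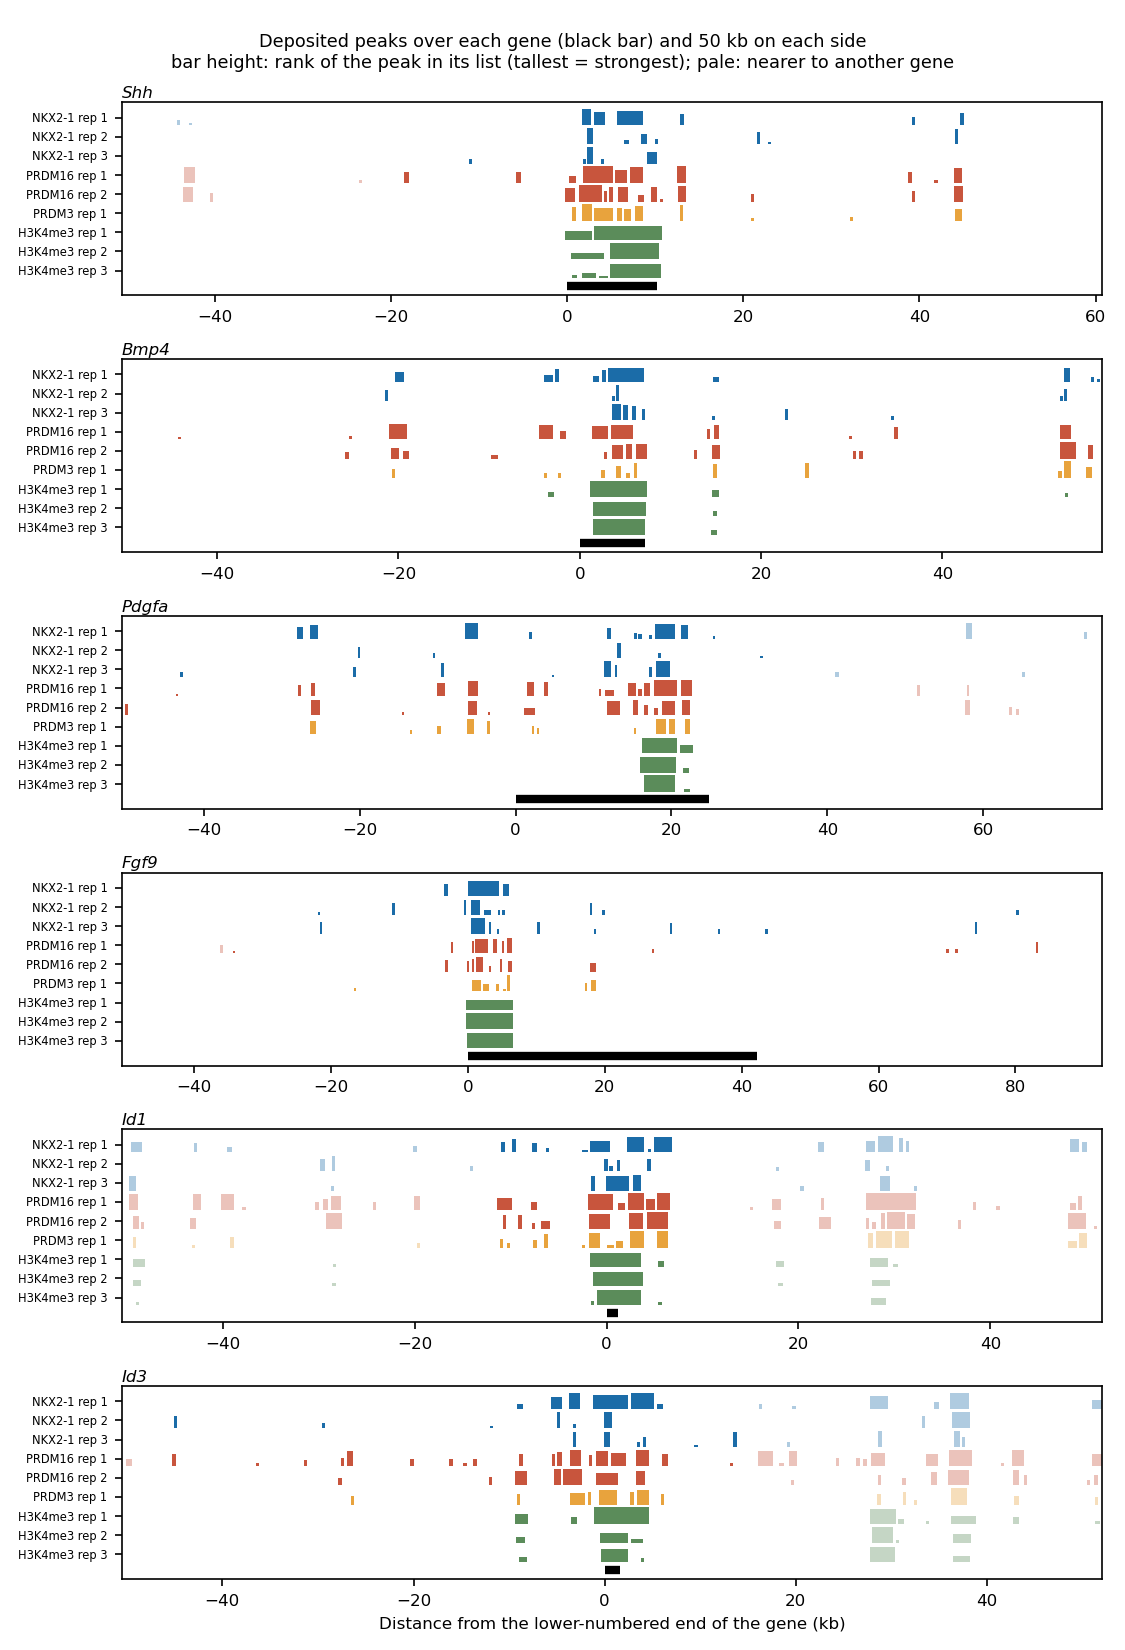
Deposited peaks of 9 libraries (rows) over each gene, drawn as a black bar, and 50 kb on each side. The x axis is the distance in kb from the lower-numbered gene end, bar height is the rank of a peak within its own list, narrow peaks are widened to stay visible, and pale bars lie nearer to another gene. Rows of factor peaks stack over the H3K4me3 peaks of all 6 genes, and around Id1 and Id3 many bars are pale.

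The DNA before 4 of the annotated starts is shown because peaks of the factors covered it at 3 of them and hardly at the other. The sequences are the 250 bases before a start, 5′ to 3′ on the gene's strand, from RefSeq (GRCm38.p6), whose promoter table held 4 of the 6 genes. They come from chr5:138994282-138994531 (Pdgfa, minus strand, the first of 2 listed starts), chr14:58072436-58072685 (Fgf9, plus strand), chr4:136143572-136143821 (Id3, plus strand) and chr14:46390670-46390919 (Bmp4, minus strand). Capitals mark a match to AGATAA, read on the other strand.
Pdgfa: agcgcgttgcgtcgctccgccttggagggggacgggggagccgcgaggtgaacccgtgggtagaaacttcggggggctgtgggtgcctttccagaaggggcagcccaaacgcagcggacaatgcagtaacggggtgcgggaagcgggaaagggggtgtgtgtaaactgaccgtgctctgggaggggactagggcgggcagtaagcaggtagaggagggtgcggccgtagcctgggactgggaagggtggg
Fgf9: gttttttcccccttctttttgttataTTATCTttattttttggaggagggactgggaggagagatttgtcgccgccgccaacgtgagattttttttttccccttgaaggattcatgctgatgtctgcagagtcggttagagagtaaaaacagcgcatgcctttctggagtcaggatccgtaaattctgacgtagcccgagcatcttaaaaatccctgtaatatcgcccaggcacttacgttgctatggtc
Id3: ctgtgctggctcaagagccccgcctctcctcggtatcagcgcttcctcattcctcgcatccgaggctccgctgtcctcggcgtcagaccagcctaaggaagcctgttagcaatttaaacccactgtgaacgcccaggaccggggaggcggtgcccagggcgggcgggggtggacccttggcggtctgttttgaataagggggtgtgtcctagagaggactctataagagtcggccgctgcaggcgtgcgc
Bmp4: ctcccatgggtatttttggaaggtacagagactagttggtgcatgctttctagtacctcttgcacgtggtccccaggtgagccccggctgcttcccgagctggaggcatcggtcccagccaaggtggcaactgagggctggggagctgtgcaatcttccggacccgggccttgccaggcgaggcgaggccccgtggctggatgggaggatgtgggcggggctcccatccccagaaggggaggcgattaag

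Peaks of all 9 lists overlapped the Pdgfa, Fgf9 and Id3 windows by at least 1 base. Over the Fgf9 window the fold enrichment was 7.08, 3.64 and 5.59 in NKX2-1, 5.25 and 6.39 in PRDM16 and 3.48 in PRDM3. Over the Id3 window it was 5.80, 4.37 and 4.00 in NKX2-1, 7.88 and 4.12 in PRDM16 and 4.94 in PRDM3. Over the Pdgfa window it was 7.56, 2.44 and 5.59 in NKX2-1, 20.1 and 2.92 in PRDM16 and 6.05 in PRDM3, and the second listed Pdgfa start lacked a peak of NKX2-1 replicate 2. The Bmp4 window overlapped the 3 H3K4me3 peaks but only 1 factor peak, of PRDM16 replicate 2 (5.05-fold). Inside the gene, beyond this window, an NKX2-1 region lay at chr14:46390359-46390573, with its midpoint 204 bases from the start. Of 32851 promoter windows in the table, 26.0% overlapped an NKX2-1 region, 30.1% a PRDM16 region, 27.4% a PRDM3 peak and 39.8% an H3K4me3 region. A region of all 3 proteins was overlapped by 19.7%. Apart from PRDM3, these shares count regions covered in several libraries, not peaks of each list, so they are not the same measure. Short motifs were searched on both strands, CAAGTG (NKX2 factors), AGATAA (zinc-finger factors such as GATA6), TGTTTAC (forkhead) and GGCGCC (SMAD1 and SMAD5). The AGATAA match 224 bases before the Fgf9 start was the single match in the 5 windows of Bmp4, Pdgfa, Fgf9 and Id3. The motifs occur in 11.6%, 9.99%, 3.17% and 9.59% of all these windows, and a match is a description of letters.

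Shh (chr5:28456840-28467101) held a site that ranked high in every factor list. This site, joined from overlapping factor peaks, lay inside the gene at chr5:28458213-28462087, with its midpoint 3310 bases from the lower-numbered end. Fold enrichment there was 11.9, 4.88 and 6.39 in NKX2-1, 19.9 and 14.2 in PRDM16 and 15.6 in PRDM3, and the 6 strongest peaks had their summits within 109 bases of each other. In the PRDM3 list this peak ranked 37 among 52248 peaks, and in the PRDM16 lists 444 and 275. The ranks in the NKX2-1 lists were 1331, 1612 and 781, so this site stood in the top 5% of every factor list. H3K4me3 replicate 1 had a peak of 12.4-fold with its summit at chr5:28459429, among the factor summits at 28459411 to 28459520. Replicates 2 and 3 also had H3K4me3 peaks over the site (13.1- and 11.6-fold). Their summits, at 28458771 and 28458796, lay outside that range. The strongest H3K4me3 peak of each library lay over the other end of the gene.

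A second Shh site covered that other end. At chr5:28462317-28467122 all 6 factor libraries had peaks, of 6.59, 2.64 and 3.20 in NKX2-1, 7.74 and 5.60 in PRDM16 and 5.79 in PRDM3, with summits spread over 2203 bases. A site outside the gene, 2770 bases past the higher-numbered end and clear of H3K4me3, had 13.4 and 6.46 for PRDM16 and 8.04 for PRDM3. NKX2-1 replicate 1 had 4.31 there and replicates 2 and 3 had no peak, and the 4 summits lay within 58 bases. At 34218 bases past the same end a further site had 5.05 and 4.07 for NKX2-1 replicates 1 and 2, 6.47 and 7.0 for PRDM16 and 3.89 for PRDM3, also with no H3K4me3. All 50 factor peaks assigned to Shh lay within 34562 bases of a gene end, and 29 of them overlapped an H3K4me3 region.

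Pdgfa (chr5:138976014-139000792) had peaks of all 6 factor libraries around its 2 listed starts, inside the annotated gene. The site at chr5:138993744-138996729 had 7.56, 2.44 and 5.59 in NKX2-1, 20.1 and 4.87 in PRDM16 and 6.44 in PRDM3, with summits spread over 1786 bases. The PRDM16 libraries differed there, with ranks of 430 among 111440 peaks in replicate 1 and 14384 among 79037 in replicate 2. A neighbouring site with its midpoint 3047 bases from a start had 12 and 6.52 for PRDM16, 6.32 for PRDM3 and 5.67 for NKX2-1 replicate 1, with no peak in NKX2-1 replicates 2 and 3. The strongest NKX2-1 replicate 1 peak of the gene (10.4-fold) lay 5665 bases outside the lower-numbered end, where PRDM16 had 6.90 and 5.47 and PRDM3 had 5.85, and the other NKX2-1 libraries again had none. One joined site inside the gene, 12377 bases from that end, held peaks of all 3 NKX2-1 libraries (4.18, 4.07 and 4.79) and both PRDM16 libraries (2.63 and 4.74) but not of PRDM3. The summits there spread over 1499 bases, with those of NKX2-1 replicates 1, 2 and 3 at 138988223, 138989293 and 138987794.

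Fgf9 (chr14:58070671-58112854) had peaks of 5 or more factor libraries in a single stretch only, over its start. At chr14:58070563-58077128 the fold enrichment was 7.08, 3.64 and 5.59 in NKX2-1, 6.17 and 6.39 in PRDM16 and 6.40 in PRDM3. All 6 libraries had a peak there, though their summits spread over 5125 bases. One other site, inside the gene and 18291 bases from its lower-numbered end, had 3.26 and 2.40 in NKX2-1 replicates 2 and 3, 3.12 in PRDM16 replicate 2 and 3.89 in PRDM3. Of 21 sites assigned to Fgf9, 17 had a peak in 1 library only. Of its 50 factor peaks 25 overlapped H3K4me3 and 5 reached a −log10 q of 5, the fewest of the 6 genes.

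Bmp4 (chr14:46383525-46390669) was bound over its body and at a site far from it. Over the body, at chr14:46384915-46390978, the fold enrichment was 6.08, 4.88 and 4.79 in NKX2-1, 6.11 and 5.25 in PRDM16 and 5.20 in PRDM3. These peaks stood between the 80.7 and the 95.8 percentile of their lists, and their summits spread over 2658 bases. The far site at chr14:46436329-46438299 lay 46645 bases upstream of the start, with 6.40 and 15.3 for PRDM16, 7.84 for PRDM3 and 6.40 and 3.26 for NKX2-1 replicates 1 and 2. NKX2-1 replicate 3 had no peak there, and the 5 summits lay within 130 bases. In PRDM16 replicate 2 this was the strongest Bmp4 peak and ranked 185 of 79037. H3K4me3 was present at the far site in replicate 1 only (5.71-fold). Another site, 7858 bases upstream of the start, carried H3K4me3 in all 3 libraries and factor peaks of 3.03 and 2.40 (NKX2-1 replicates 1 and 3), 5.60 and 4.85 (PRDM16) and 4.48 (PRDM3).

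Id1 (chr2:152736251-152737410) carried 2 neighbouring strong sites. The first, chr2:152734361-152740142, spans the whole gene and had 9.10, 3.26 and 4.24 in NKX2-1, 13 and 7.28 in PRDM16 and 9.42 in PRDM3, with summits spread over 3640 bases. The second, chr2:152740389-152743077, lay 4323 bases past the higher-numbered end and had 10.8 and 14.5 for PRDM16, 10.2 for PRDM3, and 7.29 and 3.26 for NKX2-1 replicates 1 and 2. NKX2-1 replicate 3 had no peak at the second site, where H3K4me3 peaks were small (7.30-fold in replicate 1 and 6.40-fold in replicate 3). In the PRDM16 replicate 2 and PRDM3 lists the second site was the stronger one, ranking 262 of 79037 and 391 of 52248. No factor peak assigned to Id1 lay more than 11013 bases from a gene end.

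Id3 (chr4:136143822-136145392) was flanked by sites on both sides. The site over its start, chr4:136142646-136146267, had 5.80, 4.37 and 4.00 in NKX2-1, 7.88 and 4.12 in PRDM16 and 4.94 in PRDM3. The flanking sites given next were both stronger than this one in NKX2-1 replicate 1 and in the PRDM16 lists. Only the one before the start was stronger in NKX2-1 replicate 3, and only the one past the other end in PRDM3. Neither was in NKX2-1 replicate 2. At 3175 bases before the start the values were 8.73, 2.29 and 4.24 in NKX2-1, 11.2 and 9.69 in PRDM16 and 3.84 in PRDM3. At 2339 bases past the higher-numbered end they were 8.95 and 2.69 for NKX2-1 replicates 1 and 3, 12.4 and 4.79 for PRDM16 and 5.12 for PRDM3, with no peak in NKX2-1 replicate 2. The strongest Id3 peak of NKX2-1 replicate 2 (6.51-fold, rank 416 of 62926) lay at a further site 5008 bases before the start. There NKX2-1 replicate 1 had 5.05 and PRDM16 had 5.76 and 8.27, NKX2-1 replicate 3, PRDM3 and H3K4me3 had none, and the 4 summits lay within 104 bases.

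**Figure D2:**
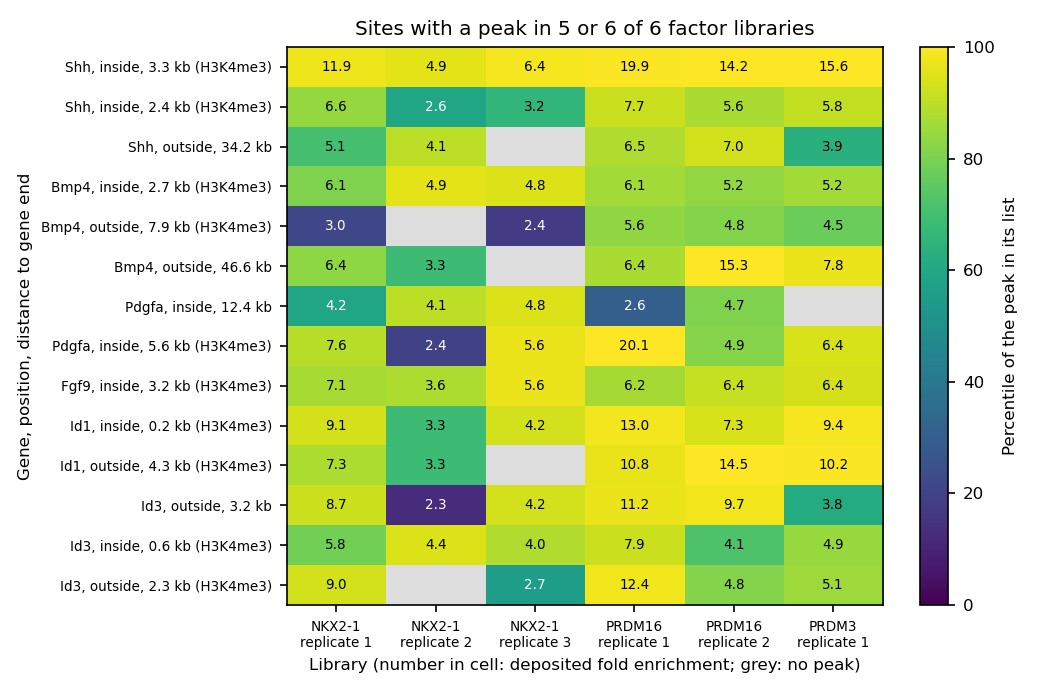
The 14 sites assigned to the 6 genes with a peak in 5 or 6 of 6 factor libraries (rows, with the distance of the midpoint to the nearer gene end in kb) by library (columns). Colour is the percentile of the peak within its list, the number is the deposited fold enrichment, and grey is no peak. The top row, inside Shh, is bright in all 6 libraries, and the grey and dark cells lie mostly in NKX2-1 replicates 2 and 3.

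Sites found in most libraries lay mostly over H3K4me3. The factor peaks assigned to the 6 genes joined into 110 sites, of which 63 were found in 1 library only, 14 in 5 or 6 libraries and 8 in all 6. Of the 16 sites over an H3K4me3 region 10 were found in 5 or 6 libraries (median 5), and of the 94 other sites 4 were (median 1). A wide joined site can collect libraries whose peaks lie apart, and it meets an H3K4me3 region more easily. The Fgf9 site over its start measured 6566 bases with summits spread over 5125, while the strongest Shh site had its summits within 109 bases. The part of site width in these counts was not tested. A region of all 3 proteins outside every H3K4me3 peak was found at no member and at 6.93% of all genes. With so low a share, 6 genes are too few to set the members apart from other genes. When only H3K4me3 regions found in at least 2 libraries were set aside, Bmp4 and Id3 had one (8.37% of all genes), since their regions outside such marks overlapped a peak of H3K4me3 replicate 1. With NKX2-1 replicate 1 taken alone in place of regions from at least 2 libraries, Shh, Bmp4, Pdgfa and Id1 had one (13.4%).

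The share of assigned peaks over H3K4me3 was above that of all peaks in every factor library. For NKX2-1 it was 42.2% (19 of 45, Wilson 95% interval 29.0 to 56.7), 40.5% (15 of 37, 26.3 to 56.5) and 51.3% (20 of 39, 36.2 to 66.1), against 30.5%, 17.3% and 16.7% of all peaks. For PRDM16 it was 32.9% (24 of 73, 23.2 to 44.3) and 48.3% (29 of 60, 36.2 to 60.7), against 15.0% and 19.4%. For PRDM3 it was 47.5% (28 of 59, 35.3 to 59.96), against 27.7%. Peaks linked to any gene with the mark at an end are the nearer comparison, and of these 42.6%, 35.6% and 35.6% (NKX2-1), 25.1% and 30.6% (PRDM16) and 42.8% (PRDM3) overlapped H3K4me3. Only NKX2-1 replicate 3 and PRDM16 replicate 2 had intervals wholly above that value. The intervals cover counting error only, and peaks of 1 library are not replicates.

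H3K4me3 itself formed wide peaks at all 6 genes. The strongest linked H3K4me3 peak measured 7756, 5637 and 5803 bases at Shh (6399 ± 1178, SD, n = 3), 6288, 5926 and 5820 at Bmp4 (6011 ± 245) and 6875, 6876 and 6820 at Fgf9 (6857 ± 32.0). It measured 4524, 4552 and 4027 bases at Pdgfa (4368 ± 295), 5368, 5212 and 4627 at Id1 (5069 ± 391) and 5776, 2928 and 2863 at Id3 (3856 ± 1663). The median widths of the 3 lists were 1390, 1438.5 and 1353 bases, below each of these 18 peaks. This peak belonged to the widest 10% of its list in all 3 libraries at 6 of 6 genes, against 5.01% of all genes and 8.42% of genes with the mark at an end. In the widest 5%, 5 of 6 genes remained (2.46% of all genes), all but Id3. The comparison of widths was added after seeing the data. The Id3 peak was wider in replicate 1, where it reached chr4:136148495, than in replicates 2 and 3, in which that stretch held a separate, smaller peak.

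**Figure D3:**
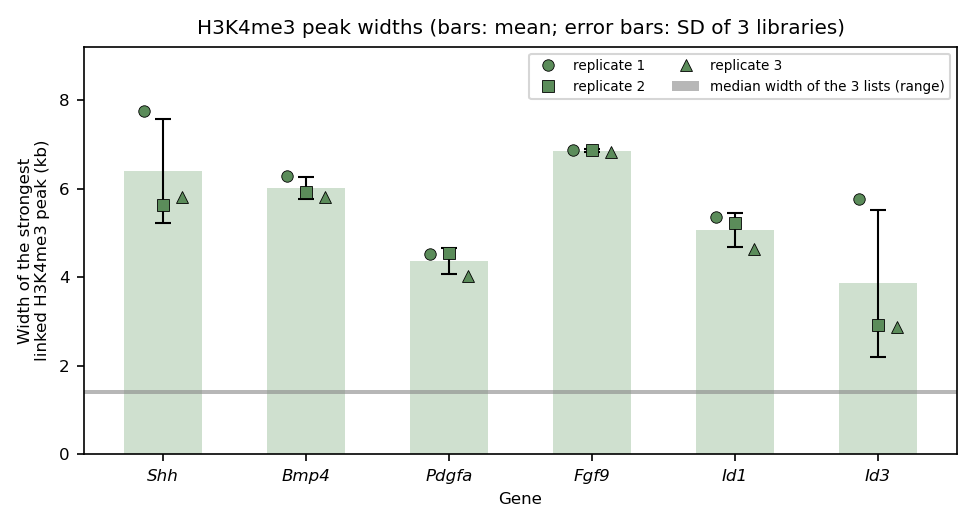
Width in kb of the strongest linked H3K4me3 peak of each gene in 3 libraries (points), with the mean (bars) and SD (error bars). The grey band is the range of the 3 list medians, and all 18 points lie above it, with Fgf9 the most alike between libraries and Id3 the least.

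In height these marks were less exceptional. Fold enrichment of the same peaks was 23.1, 68.1 and 43.0 at Shh, 32.3, 49.0 and 55.8 at Bmp4, 27.1, 73.0 and 66.6 at Pdgfa and 16.4, 76.6 and 54.9 at Fgf9. It was 22.3, 54.5 and 52.2 at Id1 and 33.6, 32.5 and 39.8 at Id3. Replicate 1 was the lowest at every gene but Id3, and its list also had a lower median fold enrichment (14.0) than the other 2 (29.8 and 26.2). Within the lists the peaks stood between the 54.0 and the 98.7 percentile, and the Fgf9 peak ranged from 58.4 in replicate 1 to 97.1 in replicate 2. The mark lay within 1 kb of an annotated gene end at 5 of 6 genes (55.7% of all genes). Pdgfa was the exception because its mark covers the listed starts, which lie inside the annotated span, and within 5 kb of an end all 6 genes had it.

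To compare NKX2-1 with the PRDM proteins, each gene was given its percentile by strongest linked peak among all 21883 genes of a library. Shh stood at 94.4, 89.6 and 95 in the NKX2-1 libraries and at 98.1 and 99.1 (PRDM16) and 99.9 (PRDM3). Id1 stood at 86.5, 57.1 and 80.3 for NKX2-1 and at 92.0 and 99.1 (PRDM16) and 98.6 (PRDM3). At these 2 genes all 3 NKX2-1 libraries lay below all 3 PRDM libraries, as they did for 7.65% of all genes, and for 4.67% they lay above. The means were 93.0 ± 2.99 against 99.0 ± 0.879 for Shh (SD, n = 3 each, difference −6.03, exact two-sided permutation p = 0.1) and 74.7 ± 15.5 against 96.6 ± 3.98 for Id1 (difference −21.9, exact p = 0.1). An exact p of 0.1 is the smallest that 3 against 3 libraries allow, and the Benjamini-Hochberg adjusted exact p over all genes was 0.812 for both, so neither difference passed. Within the first name series, where NKX2-1 replicate 1 is the sole NKX2-1 library, the differences were −4.66 for Shh and −10.1 for Id1, and the second series holds no PRDM library. Without NKX2-1 replicate 2, which had the lowest value, the difference at Id1 was −13.1.

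The other genes had overlapping groups. Bmp4 stood at 70.0, 89.6 and 83.5 for NKX2-1 and at 72.7, 99.4 and 95 for PRDM16 replicates 1 and 2 and PRDM3 (difference −7.98, exact permutation p = 0.5). The Bmp4 difference was −2.49 or −12.2 when NKX2-1 replicate 1 or 2 was left out, and −16.1 or −2.80 when PRDM16 replicate 1 or 2 was. Pdgfa stood at 91.1, 79.2 and 90.7 against 98.2, 81.8 and 89.4 (difference −2.77, exact p = 0.7). The 2 PRDM16 libraries disagreed on these genes by more than the NKX2-1 libraries did, in opposite directions. Fgf9 stood at 75.3, 75.3 and 90.7 against 60.1, 80.5 and 89.1 (difference 3.88, exact p = 0.8). Id3 stood at 86.1, 97.2 and 80.3 against 90.6, 94.6 and 78.1 (difference 0.0944, exact p = 1). The sign at Pdgfa turned without NKX2-1 replicate 2 (1.12) or PRDM16 replicate 1 (1.43), at Fgf9 without NKX2-1 replicate 3 (−1.25) or PRDM16 replicate 1 (−4.34), and at Id3 without NKX2-1 replicate 2 (−4.56). Over all genes the median difference was −0.33. No member reached the 90 percentile in all 6 factor libraries (0.315% of all genes), and Shh came nearest with 5 of 6.

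**Figure D4:**
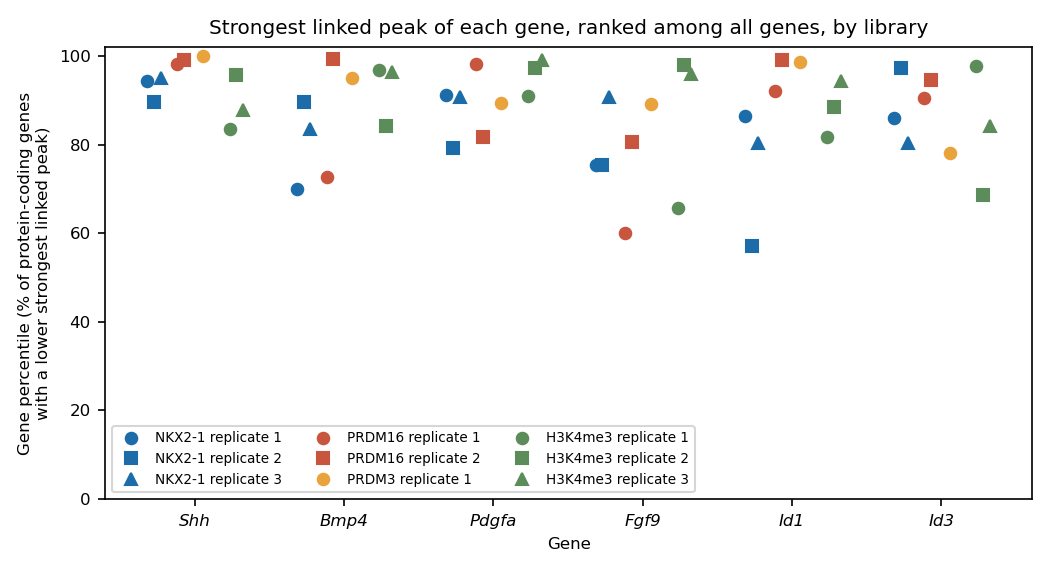
Percentile of each gene among all protein-coding genes by its strongest linked peak, 1 point per library, coloured by target and shaped by replicate. The factor points of Shh lie between 89.6 and 99.9, those of NKX2-1 lie below those of PRDM16 and PRDM3 at Shh and Id1, and the groups overlap at the other 4 genes.

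The mean percentile over the 6 factor libraries put Shh first at 96.0, followed by Pdgfa at 88.4, Id3 at 87.8, Id1 at 85.6, Bmp4 at 85.0 and Fgf9 at 78.5. The range over libraries was 89.6 to 99.9 for Shh and 60.1 to 90.7 for Fgf9. It was 79.2 to 98.2 for Pdgfa, 78.1 to 97.2 for Id3, 57.1 to 99.1 for Id1 and 70.0 to 99.4 for Bmp4. The means of Pdgfa, Id3, Id1 and Bmp4 each lay within the ranges of the others, so these genes did not differ beyond their spread. The median gene stood at 46.3. By the mean absolute difference of percentile over all 9 libraries, the genes most like Shh were Fosl2 (1.47), Bend7 (2.66) and Eapp (2.69), and those most like Pdgfa were Dok2 (1.61), Xpr1 (2.46) and Spry2 (3.21). The genes most like Id1 were Rap1b (2.17), Arhgap27 (2.25) and Ier3 (2.84), and those most like Bmp4 were Zfp608 (3.57), Smarca2 (3.60) and Rarg (3.65). Fgf9 was most like Galc (4.44), Fgfr2 (4.44) and Dmxl1 (4.69), and Id3 was most like Phc2 (3.92), Msl1 (5.05) and AU041133 (5.21). Among the members the closest pair was Shh and Pdgfa (7.35) and the farthest Fgf9 and Id3 (19.1).

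Other genes of the same pathways also had peaks of the factors, though fewer had a region of all 3. Of 68 genes in 6 lists, 52 had a linked NKX2-1 region (50.7% of all genes), 59 a PRDM16 region (58.7%), 62 a PRDM3 peak (66.7%) and 36 a region of all 3 (34.6%), and 55 had H3K4me3 at an end (55.7%). Of 16 other Hedgehog pathway genes 7 had a region of all 3 proteins, among them Gli3 and Gli1, which encode transcription factors of the pathway, Ptch1, its receptor, and Cdon, a co-receptor (mean factor percentiles 87.2, 78.4, 86.9 and 72.4). The list median was 59.3, below each of the 6 members.

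The BMP lists are to be read against the 34.6% of all genes with a region of all 3 proteins, and differences between lists were not tested. Of 14 BMP ligands and receptors 7 had such a region, among them the receptors Acvr2a, Bmpr2, Bmpr1b and Acvr2b (percentiles 81.3, 79.6, 77.5 and 77.0). Of 13 inhibitors 8 had one, with Smad7 and Smad6, the inhibitory SMADs, at 94.0 and 85.1, the decoy receptor gene Bambi at 82.2 and the ubiquitin ligase gene Smurf2 at 81.5. The secreted antagonists Grem1 (14.2) and Sostdc1 (21.5) were linked to no NKX2-1 or PRDM16 region and no PRDM3 peak. Of 10 transducers and targets 8 had one, including Id2 at 91.0, Smad5 at 84.6, Atoh8 at 82.3 and Smad4 at 80.9.

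Of the 5 other PDGF genes 3 had a region of all 3 proteins (34.6% of all genes), Pdgfra at 75.7, Pdgfb at 73.8 and Pdgfc at 66.7, and 1 of the 5 had H3K4me3 at an end. Pdgfra encodes the receptor for PDGFA on mesenchymal cells and carried no H3K4me3 at an end in these epithelial cells. Of 10 other FGF ligands and receptors 3 had one, a share near that of all genes: Fgf1 at 93.6, the epithelial receptor gene Fgfr2 at 81.2 and Fgf18 at 81.2. Fgf10, which encodes the mesenchymal ligand of that receptor, was likewise linked to no NKX2-1 or PRDM16 region and no PRDM3 peak and stood at 34.7.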

How the data were processed

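Peak lists of 9 of 12 samples were analysed, and the 3 IgG samples were not. Sample groups and replicate numbers follow the labels. The submitters' processing notes name Trimmomatic, Bowtie2, MACS2, HOMER and mm10 but no settings, and the sources used here do not say if a control library was used in calling. Each deposited peak has the authors' fold enrichment (a ratio to background), −log10 p and −log10 q values, and a score that was not used. The deposited summit offset was added to the peak start.

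Chromosomes 1 to 19 and both sex chromosomes were kept. Regions were stretches of at least 20 bases covered in at least 2 libraries of NKX2-1 or H3K4me3 or in both of PRDM16, and PRDM3 regions were the peaks of its 1 library, with no replicate check. Overlap meant at least 1 base. Sites were joined overlapping factor peaks. A peak was linked to the nearest end of a protein-coding gene within 50 kb of its midpoint. The RefSeq gene table gives no exons, so positions are given as inside or outside a gene. Gene percentiles were compared with exact permutation tests over libraries.

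The members, lists and tests were chosen with earlier results of these data known. Named genes are the members, up to 4 genes of each list with a region of all 3 proteins and the highest mean factor percentile, up to 3 without any region, the 3 genes most like each member, and the genes nearer to peaks in a window. Alternatives were stricter and equal-length lists, other links and overlaps, and leaving out each library. The first name series alone, the width of H3K4me3 peaks and regions outside H3K4me3 were added after seeing the data. The calculations were tested on simulated data. Python 3.11.15, numpy 2.4.6, pandas 2.3.3, scipy 1.17.1 and matplotlib 3.10.9 were used.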

Additional observations from a re-analysis of the deposited data

How the results depend on the processing

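Few peaks of NKX2-1 replicates 2 and 3 passed a strict threshold. With peaks of −log10 q 5 or more, the members with a linked NKX2-1 region fell from 6 to 1 and those with a region of all 3 proteins from 6 to 1. At that threshold the shares of member peaks over H3K4me3 were 71.4% (10 of 14), 0% (0 of 1) and 100% (1 of 1) in NKX2-1, 59.1% and 61.9% in PRDM16 and 80% (8 of 10) in PRDM3. With the 20000 strongest peaks they moved to 58.3% for NKX2-1 replicate 1, 59.1% for PRDM16 replicate 1 and 63.3% for PRDM3. Members with a region of all 3 proteins outside every H3K4me3 peak numbered 2 when only H3K4me3 regions of at least 2 libraries were set aside and 4 with NKX2-1 replicate 1 alone.

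The difference between NKX2-1 and PRDM percentiles changed sign at 4 genes, in each case where the groups overlap. At Bmp4 it was 8.20 with links within 10 kb. At Pdgfa it was 1.30 in the first name series and between −6.78 and 1.43 on leaving out each library. At Fgf9 it was −51.5 with the stricter q threshold, −1.25 in the first name series and between −4.34 and 6.45 on leaving out each library. At Id3 it was −28.8 with the stricter q threshold, −2.88 by −log10 p, −1.19 with links within 10 kb, −4.74 without PRDM3, −1.70 in the first name series and between −4.56 and 3.85 on leaving out each library. With the stricter q threshold, Fgf9 kept no linked peak in NKX2-1 replicates 2 and 3, and Id3 none in replicate 3. A gene without a linked peak was given percentile 0. At Shh and Id1 it stayed negative under all alternatives run, but many of these could not turn it. With the 20000 strongest peaks of each list the values did not change. Leaving out libraries cannot turn a difference where all NKX2-1 values lie below all PRDM values. With the stricter q threshold, Shh stood at 0 in NKX2-1 replicate 2 and Id1 in replicates 2 and 3. Of the alternative numbers of linked regions per gene, 71 moved by over 1.5 times and 67 did not. The cause of these changes was not tested.

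Replicate numbers 1 and 2 are shared by NKX2-1 and PRDM16, but nothing in the labels pairs them, and the deviations of same-numbered libraries had a correlation of 0.0422 over 21883 genes. With the replicate number as a block, NKX2-1 minus PRDM16 was −6.64 at Shh, −6.24 at Bmp4, −4.83 at Pdgfa, 5.02 at Fgf9, −23.7 at Id1 and −0.978 at Id3. The exact permutation p for these ran from 0.5, the smallest that 2 pairs allow, to 1.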
